A study of Mus musculus with 6 samples.

Results

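Prostanoids are lipid mediators that a cell makes on demand from arachidonic acid. A cyclooxygenase, encoded by Ptgs1 or Ptgs2, turns arachidonate into prostaglandin H2, and terminal synthases turn this intermediate into prostaglandin E2, prostaglandin D2, prostacyclin or thromboxane. Each product acts through its own G protein-coupled receptors, and 15-hydroxyprostaglandin dehydrogenase, encoded by Hpgd, inactivates the E-type prostaglandins. In eosinophils, prostaglandin D2 is known as an attractant that acts through the receptor CRTH2, while prostaglandin E2 acting through the cAMP-raising receptors EP2 and EP4 is known to restrain the cells.

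The genes described here are 10 picked by symbol for their role in the pathway, 5 enzymes (Ptgs1, Ptgs2, Ptges, Hpgds and Hpgd) and 5 receptors (Ptgir, Ptger2, Ptger3, Ptger4 and Gpr44, the older symbol of Ptgdr2), out of 23283 gene symbols in the data. All 10 symbols are listed for every library, Hpgd at 0 FPKM in 4 of them. The RNA came from eosinophils of the small intestinal lamina propria of wild-type BALB/c mice, cultured for 4 hours with GM-CSF at 10 ng/ml (3 libraries) or without it (3 libraries). Both groups share the strain, the tissue and the culture, and the purity of the cells and the age of the mice are not stated in the labels. The cultures are called triplicates in the labels, and separate animals are not mentioned, so the p-values reflect the spread among cultures, which may be technical.

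Levels are given in FPKM, which are fragments relative to transcript length and library size, summed over the transcripts of a gene. The mapped sequence behind a library ranged from 0.820 to 1.32 gigabases. Log2 fold changes are GM-CSF over untreated on log2(FPKM + 1), which understates the change of low genes. They come from a limma model fitted to the 10106 genes that averaged 1 FPKM or more over the 6 libraries, and a gene was called at a Benjamini-Hochberg adjusted p under 0.05. In that fit 2212 genes were called, which is 21.9% of those tested, 7.68% higher and 14.2% lower with GM-CSF. The 776 higher and 1436 lower calls became 1008 and 1039 when libraries were scaled by median-of-ratios factors, under which the 4 calls among the genes described here kept their direction. The eosinophil genes Siglec5 (the files' symbol for Siglecf) and Ccr3 averaged 170.4 and 251.3 FPKM in GM-CSF libraries, against 170.1 and 289.0 FPKM in untreated libraries, and neither passed. Of the 13 eosinophil markers 10 were tested, and 6 of these were called. Alox15, Il5ra, Cebpe and Epx fell to 157.0, 11.2, 126.5 and 4.27 FPKM on average with GM-CSF, against 460.6, 25.1, 192.7 and 6.62 FPKM without. Gata1 and Csf2rb, the gene of the shared beta chain of the GM-CSF receptor, rose by 0.35 and 0.87 on the log2 scale.

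With GM-CSF, 3 prostaglandin E2 receptor genes rose, Ptger2, Ptger4 and Ptger3. The cyclooxygenase genes Ptgs1 and Ptgs2 were well expressed in both groups and neither passed the test. The prostaglandin D2 synthase gene Hpgds fell, and the prostaglandin D2 receptor gene Gpr44 was lower on average without passing. Ptges, Hpgd and Ptgir were too low to be tested in either group. Of the 10 genes, 7 were tested, each with a mean of at least 1 FPKM in both groups, and 3 were called higher and 1 lower, beside the 7.68% and 14.2% of all tested genes. The 10 were chosen with earlier results of these data known, so their share is not a test of the set.

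**Figure D1:**
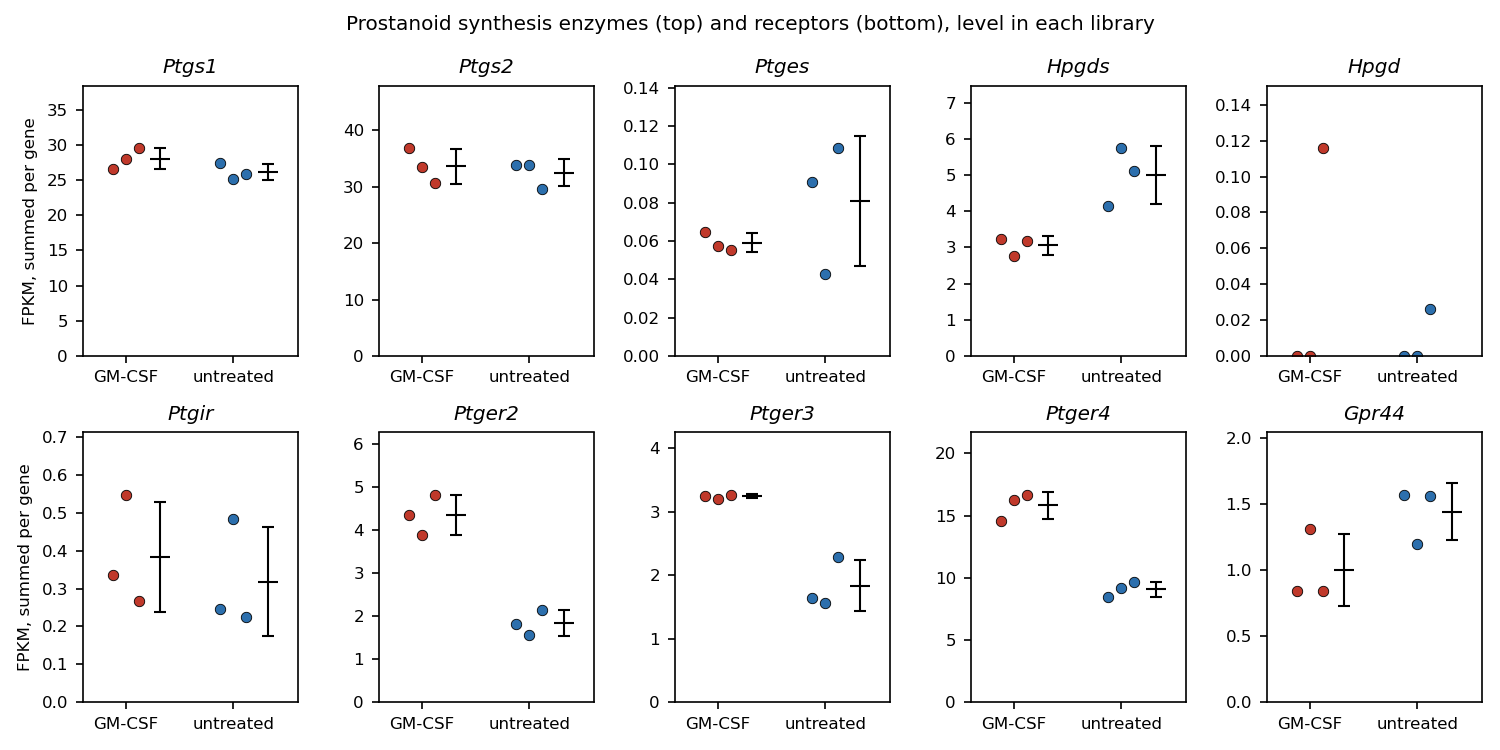
FPKM of each of the 10 genes in the 3 GM-CSF libraries (red, left) and the 3 untreated libraries (blue, right), with the mean and SD in black (no mean is drawn for Hpgd, listed at 0 in 4 libraries). The axes differ between panels and start at 0; Ptger2, Ptger3 and Ptger4 are higher in all 3 GM-CSF libraries, and Hpgds is lower in all 3.

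The 4 called genes are shown first by their promoter windows, because the 3 receptor genes moved the same way and their upstream sequences can be set side by side. Each window holds 250 bases before and 50 after the RefSeq start on GRCm38.p6, the assembly of which mm10 is the UCSC name, read 5′ to 3′ on the strand of the gene, with every CpG dinucleotide in capitals.
Ptger2 (chr14:44987861-44988160, plus strand): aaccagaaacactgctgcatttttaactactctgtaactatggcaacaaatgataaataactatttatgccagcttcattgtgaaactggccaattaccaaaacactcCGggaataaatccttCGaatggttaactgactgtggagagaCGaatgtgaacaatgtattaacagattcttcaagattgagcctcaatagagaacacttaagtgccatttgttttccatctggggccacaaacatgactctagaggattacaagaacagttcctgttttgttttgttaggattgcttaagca
Ptger4 (chr15:5244138-5244437, minus strand): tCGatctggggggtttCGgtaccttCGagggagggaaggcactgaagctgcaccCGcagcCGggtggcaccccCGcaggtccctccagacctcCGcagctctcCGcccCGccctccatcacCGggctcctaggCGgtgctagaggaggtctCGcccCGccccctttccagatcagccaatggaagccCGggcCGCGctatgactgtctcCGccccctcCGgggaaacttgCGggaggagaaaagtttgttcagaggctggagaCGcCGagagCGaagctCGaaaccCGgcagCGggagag
Ptger3 (chr3:157566626-157566925, plus strand): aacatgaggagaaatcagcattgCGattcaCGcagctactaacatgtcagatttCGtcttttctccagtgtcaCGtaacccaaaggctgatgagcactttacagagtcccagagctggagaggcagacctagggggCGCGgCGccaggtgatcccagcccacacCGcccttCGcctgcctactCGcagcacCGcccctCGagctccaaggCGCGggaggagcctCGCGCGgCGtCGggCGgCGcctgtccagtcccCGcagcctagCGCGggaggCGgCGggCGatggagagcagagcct
Hpgds (chr6:65144681-65144980, minus strand): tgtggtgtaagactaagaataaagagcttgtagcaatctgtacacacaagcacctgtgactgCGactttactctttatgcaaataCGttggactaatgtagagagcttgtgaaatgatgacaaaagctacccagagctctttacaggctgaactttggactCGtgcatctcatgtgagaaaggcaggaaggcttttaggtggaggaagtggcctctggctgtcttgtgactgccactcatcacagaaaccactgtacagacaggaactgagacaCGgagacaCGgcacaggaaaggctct

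The windows of the rising receptor genes were unlike each other in base composition. Ptger4 and Ptger3 held 25 and 27 CpG, with 67.0% and 64.0% G and C. Ptger2 held 3 CpG with 37.7% G and C, and the window of Hpgds held 5 CpG with 46.7%. Over all 32851 RefSeq promoter windows of this length the median was 7 CpG, with quartiles at 3 and 20. So Ptger4 and Ptger3 lay above the upper quartile and Ptger2 at the lower one. None of these 4 windows held the letters TTCNNNGAA, the form bound by STAT5 (found in 8.30% of all windows), TGACGTCA, the cAMP response element (1.79%), TGACTCA, the AP-1 site (5.20%), or TATAAA (13.6%), searched on both strands (none of these letter strings contains another). Among the other 6 genes only the window of Hpgd (56294302 to 56294601) held a match, TATAAA at 4 bases past the RefSeq start. The annotation used for gene positions starts Hpgd later, at 56294585, so the match lies upstream of that start. It also starts Ptger2 at 44988195, past the end of its window, which by that start lies wholly upstream of the gene. Ptges, on the minus strand, starts there at 30929863, outside its window (30903248 to 30903547). Hpgds, on the minus strand, starts there at 65144908, inside its window but upstream of the RefSeq start. These matches are a description of letters in a short window.

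Ptger2 encodes EP2, a prostaglandin E2 receptor that raises cAMP through Gs (chromosome 14, 44988195 to 45003820, GRCm38). It measured 4.35, 3.88 and 4.82 FPKM in the GM-CSF libraries, against 1.82, 1.56 and 2.15 FPKM in the untreated libraries. The lowest GM-CSF library was above the highest untreated one, as it was for 13.2% of all tested genes, while 39.2% were without overlap in either direction. The ratio of the means was 2.36, and the log2 fold change was 0.91 with an SE of 0.11 (limma adjusted p = 0.00198). Among all called rises it ranked 175 of 776 by log2 fold change. The fold change on the linear scale was the largest of the 7 tested members, and whether it differs from that of Ptger4 was not tested. An annotated gene on the opposite strand, Gm49364, overlaps an exon of Ptger2, and the labels do not say if reads were counted by strand.

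Ptger4 encodes EP4, the other Gs-coupled prostaglandin E2 receptor (chromosome 15, 5206661 to 5244187). It measured 14.6, 16.2 and 16.7 FPKM in the GM-CSF libraries, against 8.42, 9.19 and 9.64 FPKM in the untreated libraries. All GM-CSF libraries were again above all untreated ones. The mean was 15.8 ± 1.10 FPKM with GM-CSF and 9.09 ± 0.616 FPKM without (SD, n = 3 each), a ratio of 1.74, and the log2 fold change was 0.74 with an SE of 0.07 (limma adjusted p = 0.000891). It was the most abundant receptor of the 5 in every library. Ptger1, the gene of EP1, is outside the 5 and was not ranked with them. The files hold 2 RefSeq transcripts of Ptger4, of 2817 and 2442 nt. The longer took between 64.5% and 79.6% of the gene's FPKM in GM-CSF libraries and between 71.8% and 77.0% in untreated ones, so the ranges overlapped and the gene sum is read here.

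Ptger3 encodes EP3, which signals mainly through Gi and lowers cAMP, the opposite of EP2 and EP4 (chromosome 3, 157566892 to 157645888). It measured 3.25, 3.20 and 3.27 FPKM in the GM-CSF libraries, against 1.65, 1.57 and 2.29 FPKM in the untreated libraries. The GM-CSF libraries lay close together and above all untreated ones. The ratio of the means was 1.77, and the log2 fold change was 0.59 with an SE of 0.11 (limma adjusted p = 0.0117). EP receptor genes of both cAMP directions were therefore among those that rose.

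Gpr44 encodes CRTH2, the prostaglandin D2 receptor through which eosinophils are attracted (chromosome 19, 10937160 to 10942511, annotated as Ptgdr2). It measured 0.845, 1.31 and 0.845 FPKM in the GM-CSF libraries, against 1.57, 1.20 and 1.56 FPKM in the untreated libraries. The groups overlapped, since GM-CSF replicate 2 was above untreated replicate 2. The log2 fold change was -0.29 with a 95% interval from -0.61 to 0.03 (limma adjusted p = 0.174). Roughly 46 to 116 reads stood behind each of these values. An exon of Ccdc86 on the opposite strand overlaps Gpr44. Ccdc86 measured 6.05 ± 0.550 FPKM with GM-CSF and 6.27 ± 0.429 FPKM without (SD, n = 3 each).

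Ptgir encodes IP, the Gs-coupled prostacyclin receptor (chromosome 7, 16906490 to 16910905). It was listed at 0.336, 0.547 and 0.266 FPKM in the GM-CSF libraries, against 0.245, 0.484 and 0.226 FPKM in the untreated libraries. Replicate 2 was the highest of each group and the groups overlapped. Between 17 and 61 reads, by the same rough conversion, lay behind these values. The prostacyclin synthase gene Ptgis was listed at 0 in all 6 libraries.

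By level the receptors stood in the order Ptger4, Ptger2, Ptger3, Gpr44 and Ptgir by mean FPKM in both groups. In GM-CSF libraries no neighbours in that order had overlapping ranges. In untreated libraries Ptger2 and Ptger3 had the same rounded mean, 1.84 FPKM, with overlapping ranges, and the ranges of Ptger3 and Gpr44 also overlapped. The summed level of the Gs-coupled receptor genes Ptger4, Ptger2 and Ptgir was 19.3, 20.7 and 21.8 FPKM in GM-CSF libraries, against 10.49, 11.24 and 12.02 FPKM in untreated ones. Ptger4 held between 75.7% and 78.6% of that sum with GM-CSF and between 80.2% and 81.8% without, and Ptger2 between 18.8% and 22.6% with GM-CSF and between 13.9% and 17.9% without. These shares did not overlap between the groups and were not tested.

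**Figure D2:**
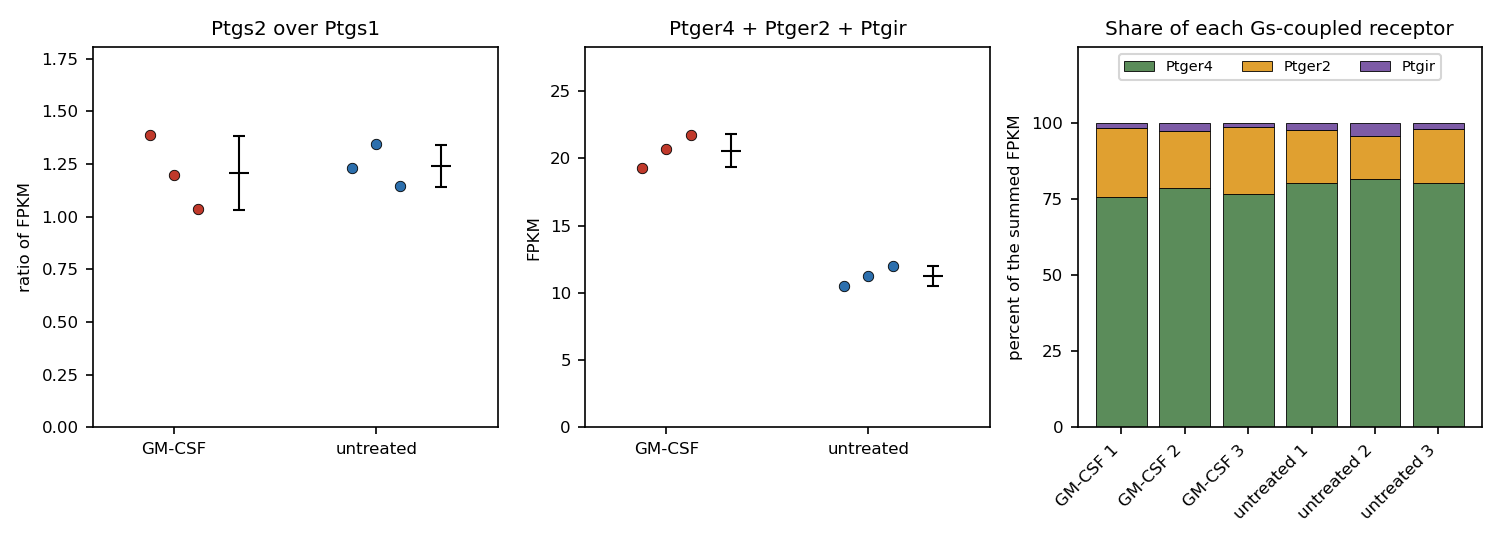
Left, the ratio of Ptgs2 to Ptgs1 FPKM; middle, the summed FPKM of the Gs-coupled receptor genes Ptger4, Ptger2 and Ptgir; right, the percent of that sum held by each, in single libraries. Points are libraries (GM-CSF left, untreated right) with the mean and SD in black; the cyclooxygenase ratio overlaps between groups, and the receptor sum is between 19.3 and 21.8 FPKM with GM-CSF, above the untreated libraries.

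Among the enzymes, Ptgs2 encodes COX-2, the cyclooxygenase that many cells induce on activation (chromosome 1, 150100031 to 150108227). It measured 36.8, 33.6 and 30.6 FPKM in the GM-CSF libraries, against 33.8, 33.9 and 29.7 FPKM in the untreated libraries. The groups overlapped. The log2 fold change was 0.05 with a 95% interval from -0.15 to 0.25 (limma adjusted p = 0.735), and its sign turned without GM-CSF replicate 1 or untreated replicate 3. The untreated mean of Ptgs2, 32.5 FPKM, was above that of 77.0% of all tested genes.

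Ptgs1 encodes COX-1, the cyclooxygenase that most cells carry at a steady level (chromosome 2, 36230426 to 36252272). It measured 26.5, 28.1 and 29.5 FPKM in the GM-CSF libraries, against 27.4, 25.2 and 25.9 FPKM in the untreated libraries. The groups overlapped, and the log2 fold change was 0.10 with a 95% interval from -0.04 to 0.23 (limma adjusted p = 0.293). Ptgs2 exceeded Ptgs1 in all 6 libraries, by a ratio of 1.39, 1.20 and 1.04 in GM-CSF libraries, against 1.23, 1.35 and 1.15 in untreated ones. Between 1711 and 4660 reads lay behind each value of these genes.

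Hpgds encodes the haematopoietic prostaglandin D2 synthase (chromosome 6, 65117293 to 65144908). It measured 3.23, 2.75 and 3.17 FPKM in the GM-CSF libraries, against 4.13, 5.74 and 5.12 FPKM in the untreated libraries. All GM-CSF libraries were below all untreated ones, as they were for 26.0% of all tested genes. The ratio of the means was 0.611, and the log2 fold change was -0.56 with an SE of 0.12 (limma adjusted p = 0.0167). Among the fits that left out 1 library, the call was lost, at the same sign, without GM-CSF replicate 2 (limma adjusted p = 0.0557), untreated replicate 2 (0.0527) or untreated replicate 3 (0.0589).

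Hpgds is also known in mast cells, macrophages, tuft cells and T helper 2 cells, and markers of some of these, and of other cell types, moved with it. In bulk RNA, fewer cells of a type and less RNA per cell cannot be told apart. The marker calls were read from the reported fit alone, in which 14.2% of all tested genes were lower and 7.68% higher. With median-of-ratios factors all calls split into 1008 higher and 1039 lower, against 776 and 1436. Of 13 mast cell markers 6 were tested and 3 fell, Hdc, Kit and Gata2, and the list summed to between 149.6 and 170.4 FPKM with GM-CSF and between 231.4 and 314.8 FPKM without. Hdc made most of that sum, at 144.0 FPKM on average with GM-CSF and 249.6 FPKM without. How much of the Hdc RNA came from mast cells was not tested. The mast cell protease genes Cma1 and Tpsb2 were listed at 0 in all libraries, and Cpa3 did not exceed 0.386 FPKM in any. The protease genes Mcpt1 and Mcpt2 were present, at averages of 3.47 and 1.84 FPKM with GM-CSF, against 5.95 and 2.18 FPKM without. Neither passed (limma adjusted p = 0.743 and 0.972), and untreated Mcpt1 ranged from 0.951 to 9.47 FPKM. Of 13 macrophage and dendritic cell markers 4 were tested and 3 fell, Csf1r, Apoe and Lyz2. The list summed to between 130.3 and 139.6 FPKM with GM-CSF and between 136.5 and 155.3 FPKM without, so the sums overlapped. Cd68 made most of them, at 99.0 FPKM on average with GM-CSF and 93.3 FPKM without, and did not pass (limma adjusted p = 0.339). C1qa, C1qb and C1qc stayed under 1 FPKM in every library, and none of the 13 was listed at 0 throughout.

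Of 8 T cell markers in the files 4 were tested and all 4 fell, Cd3e, Cd3d, Cd3g and Lck, with sums between 15.5 and 17.8 FPKM with GM-CSF and between 28.5 and 29.4 FPKM without. None of these 8 was listed at 0 in all libraries. Of 7 tuft cell markers in the files, Trpm5, Pou2f3, Il25 and Gnat3 were listed at 0 in all libraries and Dclk1 did not exceed 0.0177 FPKM. The list summed to between 254.7 and 277.1 FPKM with GM-CSF and between 194.7 and 217.6 FPKM without, nearly all of it from Alox5, which eosinophils also express and the 1 tested member, which rose. Markers of cell types not named above fell as well. Of 8 B and plasma cell markers 5 were tested and all 5 fell, with sums between 17.1 and 18.1 FPKM with GM-CSF and between 31.4 and 39.1 FPKM without. Of 13 epithelial markers 11 were tested and 7 fell, with sums between 63.0 and 76.5 FPKM with GM-CSF and between 97.6 and 106.3 FPKM without. Of the tested markers, 2 of 4 for innate lymphoid and NK cells fell, 1 of 5 for neutrophils rose and 2 fell, and 1 of 3 for stroma and endothelium rose and 1 fell. The part of other cells in the values of Hpgds and Gpr44 was not tested.

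Ptges encodes the inducible microsomal prostaglandin E2 synthase (chromosome 2, 30889471 to 30929863). It was listed at 0.0646, 0.0572 and 0.0554 FPKM in the GM-CSF libraries, against 0.0909, 0.0429 and 0.108 FPKM in the untreated libraries. These values correspond to roughly 4 to 9 reads a library, and a difference was not detectable at this depth. Hpgd, the inactivating enzyme (chromosome 8, 56294585 to 56321043), was listed at 0, 0 and 0.116 FPKM in the GM-CSF libraries, against 0, 0 and 0.0259 FPKM in the untreated libraries. At most about 4 reads supported it in any library.

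The other genes of the pathway were taken from 6 lists with 73 entries, all of them in the files. Of these, 50 were tested, 8 were called higher and 10 lower, and their median log2 fold change was -0.09, beside -0.05 over all tested genes. The 18 calls are 36.0% of those tested, beside 21.9% of all tested genes. The lists were chosen with earlier results of these data known, so this share is not a test of the pathway.

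**Figure D3:**
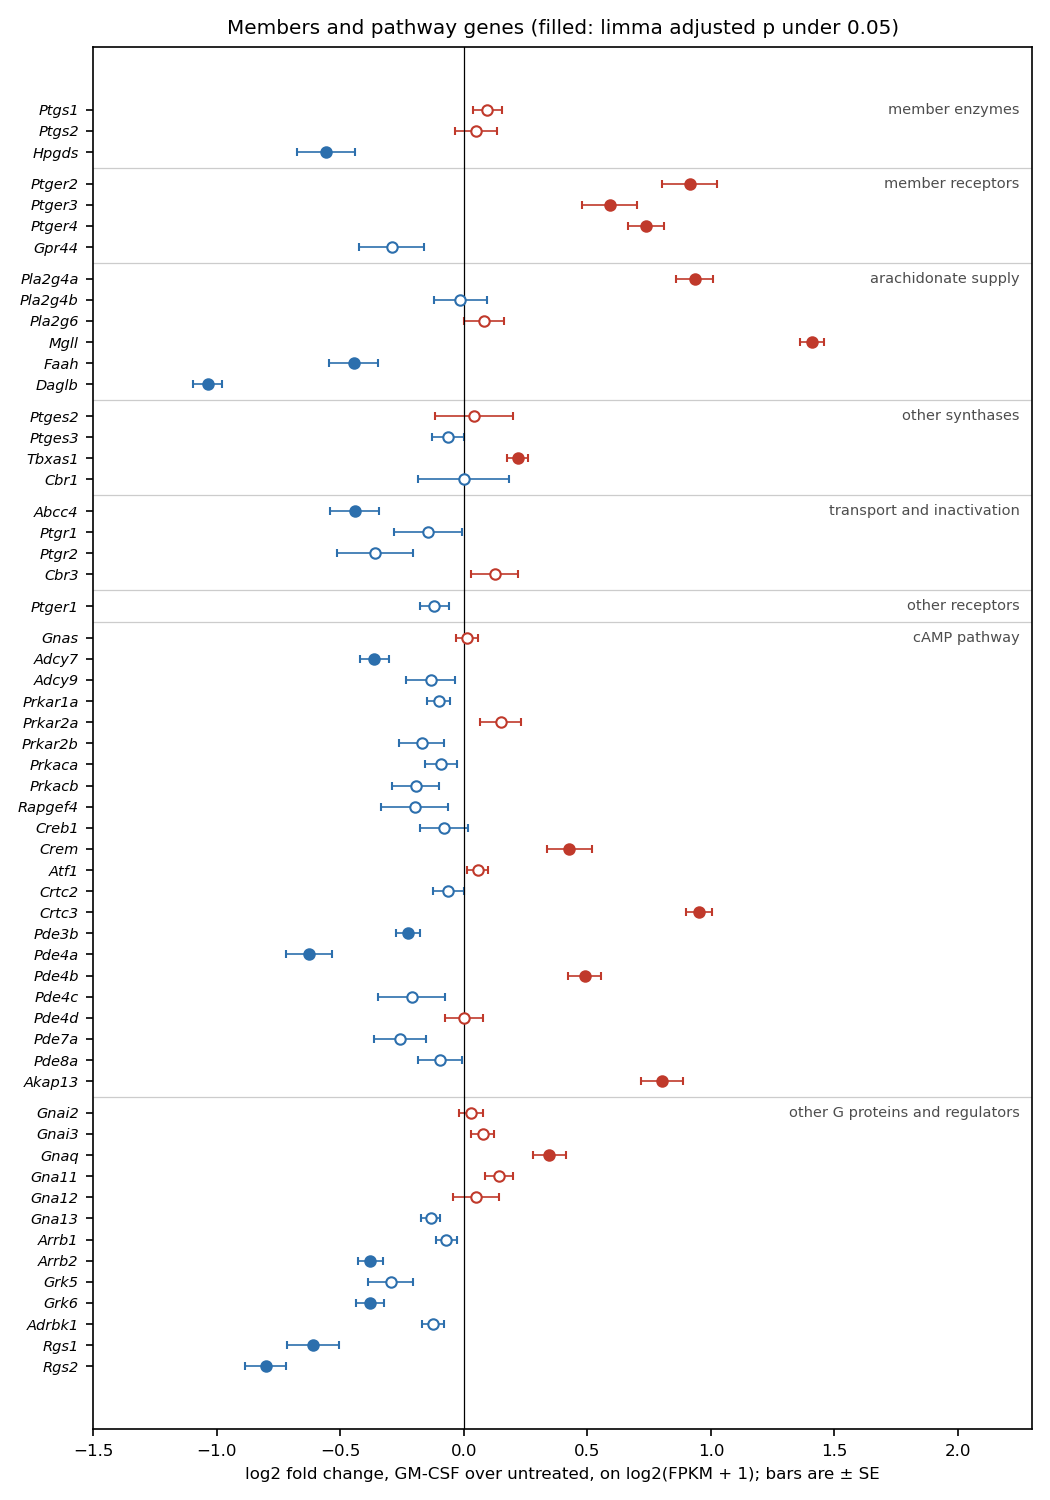
Log2 fold change of each tested gene, GM-CSF over untreated, on log2(FPKM + 1), with its SE; filled points passed the limma test at an adjusted p under 0.05. Ptger2, Ptger3, Ptger4, Pla2g4a, Mgll, Crtc3 and Akap13 lie to the right of 0, and Daglb and Rgs2 farthest to the left.

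Upstream, genes that release arachidonate or its precursors changed in both directions, 2 up and 2 down of 6 tested, with a median log2 fold change of 0.03. Of all tested genes, 7.68% were called higher and 14.2% lower. Pla2g4a encodes cytosolic phospholipase A2 alpha, the enzyme that frees arachidonate from membranes. It measured 35.5, 34.9 and 41.7 FPKM in the GM-CSF libraries, against 18.8, 18.7 and 19.5 FPKM in the untreated ones (log2 fold change 0.93, SE 0.07, limma adjusted p = 0.000328). Pla2g4a lies at 149829618 to 149961290 on chromosome 1, beside Ptgs2, and the difference between the responses of this pair was not tested. Mgll, the monoacylglycerol lipase that releases arachidonate from 2-arachidonoylglycerol, measured 46.3, 47.0 and 49.1 FPKM with GM-CSF, against 17.8, 16.4 and 17.4 FPKM without (log2 fold change 1.41, SE 0.05, limma adjusted p = 1.15e-05). An exon of Mgll is overlapped by the annotated gene Gm26588 on the opposite strand. Both genes were higher in every GM-CSF library than in any untreated one.

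The enzyme that makes 2-arachidonoylglycerol, encoded by Daglb, fell to 4.59, 4.41 and 4.26 FPKM in GM-CSF libraries, against 9.96, 9.91 and 10.5 FPKM in untreated ones (log2 fold change -1.04, SE 0.06, limma adjusted p = 8.67e-05). Rac1, whose exon overlaps Daglb on the opposite strand, averaged 140.3 FPKM with GM-CSF and 151.5 FPKM without (log2 fold change -0.11, limma adjusted p = 0.142). Faah, which hydrolyses the related lipid anandamide, averaged 0.740 ± 0.0888 FPKM with GM-CSF and 1.37 ± 0.135 FPKM without (SD, n = 3 each; log2 fold change -0.45, limma adjusted p = 0.0209). That call was lost without GM-CSF replicate 1 (limma adjusted p = 0.0599).

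Of the other terminal synthase genes 4 of 8 were tested and 1 was called, beside 21.9% of all tested genes. Their median log2 fold change was 0.02. Tbxas1, the thromboxane synthase gene, averaged 74.1 ± 2.49 FPKM with GM-CSF and 63.6 ± 1.88 FPKM without (SD, n = 3 each). Its log2 fold change was 0.22 with an SE of 0.04 (limma adjusted p = 0.0139), and without untreated replicate 2 the adjusted p was 0.0547. The most abundant was Ptges3, a co-chaperone also described as a cytosolic prostaglandin E2 synthase, at 109.7 ± 4.37 FPKM with GM-CSF and 114.8 ± 9.29 FPKM without (SD, n = 3 each; log2 fold change -0.06, limma adjusted p = 0.556). In both groups Ptges3 and Tbxas1 averaged more FPKM than Ptgs1 or Ptgs2.

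Of the transport and inactivation genes 4 of 5 were tested and 1 was called, beside 21.9% of all tested genes. Their median log2 fold change was -0.25. Abcc4, an exporter of prostaglandins and cyclic nucleotides, averaged 2.68 ± 0.303 FPKM with GM-CSF and 4.00 ± 0.416 FPKM without (SD, n = 3 each; log2 fold change -0.44, limma adjusted p = 0.0207). That call was lost without GM-CSF replicate 1 (limma adjusted p = 0.0687), GM-CSF replicate 2 (0.0644) or untreated replicate 2 (0.0667), or with no filter on low genes (0.0520). With the highest transcript in place of the gene sum the log2 fold change was -0.09. The reductase genes Ptgr2 and Ptgr1 averaged 4.79 and 4.06 FPKM with GM-CSF, against 6.55 and 4.54 FPKM without (limma adjusted p = 0.154 and 0.525). Without untreated replicate 1, Ptgr2 passed at a log2 fold change of -0.54 (limma adjusted p = 0.0152).

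Of the 5 other prostanoid receptor genes only Ptger1, which encodes EP1, was tested. It did not pass (log2 fold change -0.12, limma adjusted p = 0.203), and no level is read for it here. Pparg, a nuclear receptor that binds prostaglandin D2 derivatives, averaged 0.178 FPKM with GM-CSF, listed at 0 in replicate 2, against 0.449 FPKM without.

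Downstream of the Gs-coupled receptors, 22 of 27 cAMP pathway genes were tested. Of these, 4 were called higher and 3 lower, beside 7.68% and 14.2% of all tested genes, and the median log2 fold change was -0.09. Crtc3, a coactivator of CREB, measured 28.1, 26.5 and 25.8 FPKM with GM-CSF, against 13.3, 13.9 and 12.9 FPKM without (log2 fold change 0.95, SE 0.05, limma adjusted p = 8.08e-05). Akap13, a protein kinase A anchoring protein gene, rose by 0.80, the phosphodiesterase gene Pde4b by 0.49 and the cAMP-responsive factor gene Crem by 0.43 on the log2 scale. Pde4a, a related phosphodiesterase gene, fell by 0.63, at 2.58 ± 0.188 FPKM with GM-CSF and 4.53 ± 0.489 FPKM without (SD, n = 3 each). The adenylyl cyclase gene Adcy7 averaged 26.9 FPKM with GM-CSF and 34.9 FPKM without (log2 fold change -0.36, limma adjusted p = 0.00638). Pde3b, another phosphodiesterase gene, fell by 0.23 on the log2 scale (limma adjusted p = 0.0175). The call of Pde4a was lost with the highest transcript in place of the gene sum (log2 fold change -0.17, limma adjusted p = 0.663), and that of Crem there and without GM-CSF replicate 1 (0.0651) or 3 (0.0508). Adcy7 also lost its call with the highest transcript, and Pde3b without GM-CSF replicate 1 or 2. The most abundant genes of the list did not pass. Gnas, the Gs subunit gene, averaged 280.7 FPKM with GM-CSF and 278.4 FPKM without, and Prkar1a, a protein kinase A regulatory subunit gene, averaged 108.2 FPKM with GM-CSF and 116.1 FPKM without (limma adjusted p = 0.896 and 0.182).

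Among other G proteins and receptor regulators, 13 of 14 genes were tested. Of these, 1 was called higher and 4 lower, beside 7.68% and 14.2% of all tested genes, and the median log2 fold change was -0.12. Rgs2, which shortens G protein signalling, measured 127.1, 131.0 and 140.2 FPKM with GM-CSF, against 209.9, 229.1 and 259.4 FPKM without (log2 fold change -0.80, SE 0.08, limma adjusted p = 0.00102). Its relative Rgs1 averaged 417.5 ± 40.5 FPKM with GM-CSF and 639.0 ± 73.1 FPKM without (SD, n = 3 each; log2 fold change -0.61, limma adjusted p = 0.00800). The receptor kinase gene Grk6 and the beta-arrestin gene Arrb2, which act in receptor desensitization, each fell by 0.38, and the Gq subunit gene Gnaq rose by 0.35 on the log2 scale (limma adjusted p = 0.00480, 0.00273 and 0.0129). Gnai2, the most abundant Gi subunit gene, averaged 362.2 FPKM with GM-CSF and 355.5 FPKM without (limma adjusted p = 0.747).

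The tested genes whose profile over the 6 libraries lay closest to that of Ptger4 were Gm8979, Zfp106 and Wtap, at a root mean square difference of 0.0443, 0.0496 and 0.0502 on the centred log2(FPKM + 1) scale. Those closest to Ptger2 were Adam9, Etv6 and Cers6, at 0.0572, 0.0763 and 0.0767. The libraries fall in 2 groups, so this measure mostly finds genes with a similar rise: Wtap averaged 77.6 ± 4.56 FPKM with GM-CSF and 46.4 ± 0.508 FPKM without, and Adam9 averaged 23.4 ± 0.806 FPKM with GM-CSF and 12.4 ± 0.982 FPKM without (SD, n = 3 each).

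**Figure D4:**
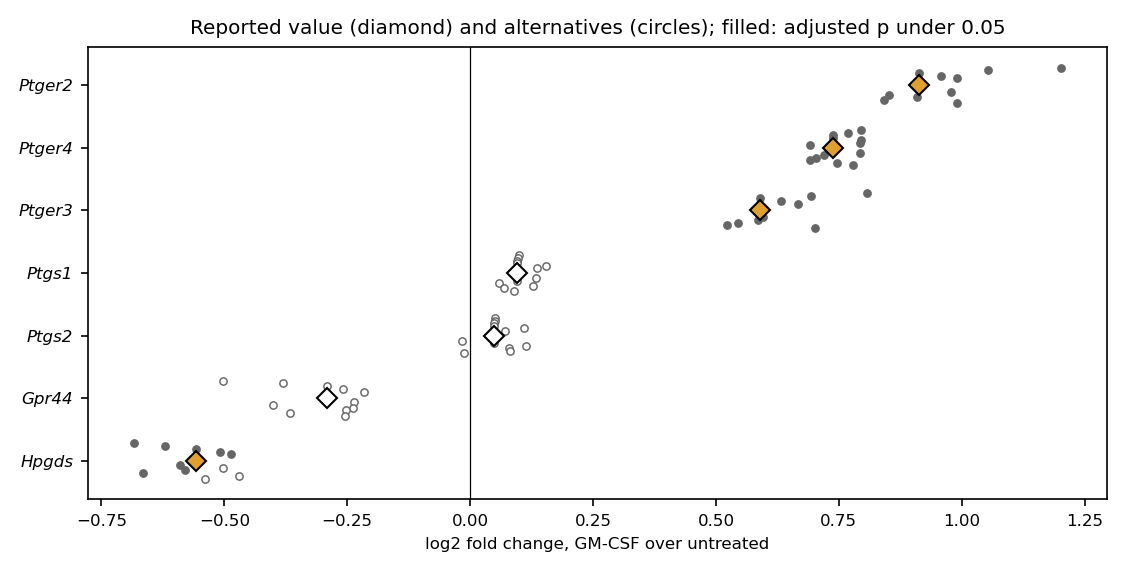
Log2 fold change of the 7 tested members, GM-CSF over untreated, as reported (diamonds) and under the alternatives run (circles); filled symbols passed at an adjusted p under 0.05. Ptger2, Ptger4 and Ptger3 stay right of 0 and filled throughout, Hpgds stays left of 0 and is unfilled under 4 alternatives (the circle of the replicate block lies under the diamond), and Ptgs2 lies on both sides of 0.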

How the data were processed

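Polyadenylated RNA of 6 cultures, 3 with GM-CSF and 3 untreated, was made into libraries with a TruSeq stranded kit, per the labels' protocols. Per the submitters' processing notes, Cufflinks, TopHat and TopHat2, bcl2fastq 1.8.4 and the build mm10 were used; their order, settings and any use of strand are not stated. The authors deposited FPKM values and a coverage signal for 30374 RefSeq transcripts per library, per the file headers. Coverage was used only for depth: divided by FPKM it gives the mapped gigabases, and the smallest coverage steps, near 40 nt, were taken as 1 read, so read numbers are approximate. No read counts were used.

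FPKM were summed per symbol. Genes averaging 1 FPKM or more were tested on log2(FPKM + 1) with limma 3.58.1 in R 4.3.3 (empirical Bayes with trend, two-sided), with Benjamini-Hochberg adjustment over all of them. The fit was tested on simulated data. Promoter sequences are from RefSeq (GRCm38.p6, all 10 genes matched, Gpr44 as Ptgdr2) and positions from GENCODE M21 (GRCm38). The members and lists were chosen with earlier results of these data known. Named pathway genes are, per list, the called members up to 5 by size and the 2 most abundant. Adcy7 and Pde3b are named beyond these, as the remaining calls of the cAMP list. For the called member with the highest level and that with the largest change, the 3 genes closest in profile are named. The 10 marker lists held 106 entries, of which 103 matched; markers named beyond the most abundant and those near 0 were chosen after their values were seen. An item of the annotation is not reported here.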

Additional observations from a re-analysis of the deposited data

How the results depend on the processing

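The 15 alternatives were pseudocounts of 0.1 and 0.5, no filter, a mean of at least 5 FPKM, median-of-ratios and quantile scaling, the highest transcript, no trend, the replicate block and leaving out each library. Ptger2, Ptger3 and Ptger4 passed under every alternative that tested them (14, 14 and 15), at log2 fold changes from 0.84 to 1.20, 0.52 to 0.81 and 0.69 to 0.79. Ptgs1 (0.06 to 0.15) and Gpr44 (-0.50 to -0.22) passed under none. Hpgds ranged from -0.68 to -0.47, with -0.67 to -0.47 when 1 library was left out. Ptgs2 ranged from -0.0158 (without GM-CSF replicate 1; -0.0123 without untreated replicate 3) to 0.1136 when 1 library was left out. With a mean of at least 5 FPKM, 3 members were tested and 1 was called, against 4 of 7, because Ptger2, Ptger3 and Hpgds lie below that filter. All genes called numbered between 1510 and 2221 against 2212. Leaving out 1 library gave between 885 and 1126 lower calls. The split of 776 higher and 1436 lower calls became 1008 and 1039 with median-of-ratios factors and 950 and 1111 with quantile normalization. Between 14 and 19 pathway genes were called, against 18, and 11 of the 18 passed under every alternative that tested them. Among the pathway genes named above, values that did not pass turned sign for Gnas (-0.0457 with the highest transcript), and when 1 library was left out for Gnas (-0.0156 to 0.039, with -0.0149), Gnai2 (-0.0021 to 0.065, with -0.0005), Ptges3 (-0.1076 to 0.0010) and Ptgr1 (-0.2232 to 0.0080). Pla2g4b, Ptges2, Cbr1, Creb1, Pde4d and Gna12, which did not pass either, also turned sign under some alternatives. The replicate numbers gave no sign of pairing (correlations of -0.03, 0.05 and -0.02 between same-numbered libraries); with the replicate block 3 members were called, and Hpgds (-0.56, limma adjusted p = 0.0506) was not; of the 18 pathway calls only that of Abcc4 was lost there (0.0588). Depth limits Ptges, Hpgd and Ptgir, which were tested only without a filter and did not pass there (limma adjusted p = 0.609, 0.677 and 0.755).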

Other observations

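Among synthase genes outside the members, Akr1b3, an aldo-keto reductase described as a prostaglandin F synthase, was listed at 3.82 FPKM in GM-CSF replicate 1 and did not exceed 0.000389 FPKM in any of the other libraries. Ptgds, the lipocalin-type prostaglandin D2 synthase gene, was listed at 0 in all 6 libraries, as was Ptgis, so Hpgds was the prostaglandin D2 synthase gene with a level above 0. The ratio of Ptger4 to Ptger2 FPKM was 3.35, 4.18 and 3.46 in GM-CSF libraries, against 4.64, 5.87 and 4.49 in untreated ones, without overlap and without a test.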
